A study of Mus musculus with 6 samples.

Results

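Serine is made from a glycolytic intermediate by 3 enzymes, and its side carbon is then handed to folate, which carries it into the synthesis of purines, thymidylate and methionine. The folate reactions run twin tracks: mitochondrial enzymes take the carbon from serine and release it as formate, and cytosolic enzymes use that formate or run the same steps on their own. Rapidly dividing cells, leukaemia cells among them, are known for high levels of these enzymes, and several of the genes are textbook targets of ATF4, a transcription factor switched on when amino acids are short. Here 10 genes of the pathway, of 35869 gene symbols listed, were followed in mouse leukaemia cells that lost Chaf1b. They were picked by symbol: Phgdh, Psat1 and Psph for serine synthesis, Shmt2, Mthfd2, Mthfd1l and Aldh1l2 for the mitochondrial folate track, Shmt1 and Mthfd1 for the cytosolic one, and Pck2, the mitochondrial enzyme that makes phosphoenolpyruvate from oxaloacetate.

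The cells were mouse haematopoietic cells turned into acute myeloid leukaemia by the MLL-AF9 fusion oncogene, delivered with a retrovirus. All of them, controls included, carried floxed Chaf1b alleles and CreERT2, a recombinase that acts when its ligand is added. They grew with SCF, IL6 and IL3. For the 3 KO libraries the cells received β-estradiol for 48 hours to delete Chaf1b, which encodes a subunit of the histone chaperone CAF-1. For the 3 WT libraries such cells received ethanol vehicle. KO cells therefore differ from WT cells by the ligand as well as the deletion, and these cannot be told apart. The cells are described as clones of floxed leukaemia cells, but the sources used here do not say how many clones there were or whether replicates were separate cultures. The p-values thus measure the spread between these libraries, which may be technical.

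Polyadenylated RNA was sequenced, and the values are TPM, a transcript's share of its library corrected for length. TPM keeps no depth, so the reads behind each value are unknown. Chaf1b was at 14.2 to 17.7 TPM in KO and 48.6 to 50.6 TPM in WT, a KO mean of 31.2% of WT. All 10 myeloid and leukaemia markers (Ptprc, Spi1, Kit, Cebpa, Hoxa9, Meis1, Itgam, Cd48, Mpo, Cd34) reached at least 14.4 TPM in every library. Mpo, a granule enzyme of maturing myeloid cells, was among them, with a WT mean of 76.9 TPM (SD 54.4) and a KO mean of 1854 TPM (SD 725, n = 3 each). The rest moved less and both ways. WT and KO means were 69.8 and 86.5 TPM for Cebpa, 35.1 and 40.1 for Kit, 15.2 and 16.1 for Meis1 and 167 and 185 for Itgam. They were 213 and 174 TPM for Hoxa9, 116 and 84.8 for Cd34, 91.6 and 81.4 for Cd48 and 27.8 and 26.3 for Ptprc. Spi1 was at 133 TPM in both. The part of such shifts in the results below was not tested. Of 10 markers of other cell types, Pecam1, which myeloid cells also carry, lay between 60.8 and 79.1 TPM, and the other 9 summed to 11.6 to 18.4 TPM in KO and 5.5 to 10.3 TPM in WT. Cd3e and Alb stayed at 0.2 TPM or less in every library. Col1a1 (0.2 to 0.6 TPM in WT, 1.4 to 2.8 TPM in KO), Epcam (up to 0.1 and 0.2 to 0.9 TPM) and Pdgfrb (0.5 to 1.3 and 1.5 to 1.6 TPM) were low, with every KO library above every WT library, and their part in the results was not tested. In each group replicate 1 stood apart. KO replicates 2 and 3 correlated at a Pearson's r of 0.998 on the log2(TPM + 1) scale over the 13575 genes tested, as did WT replicates 2 and 3, whereas r was 0.991 for KO replicates 1 and 2 and 0.984 for WT replicates 1 and 2. Fold changes of the 10 genes are therefore given with and without these libraries.

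The 10 genes were proposed for this comparison after KO and WT levels of the same 6 libraries had been seen, so their values here are a description and no p-value is given for them. All 10 had a lower mean log2(TPM + 1) in KO. The median log2 fold change was -0.40, beside 0.01 over all tested genes and -0.07 over the 5996 tested genes with a WT mean of at least 20 TPM. A fit of all tested genes in limma called 6 of the 10 lower at an adjusted p under 0.05 (Phgdh, Psat1, Shmt2, Mthfd2, Aldh1l2 and Pck2) and none higher, where 6.11% of all tested genes were called lower and 12.9% higher. At an unadjusted limma p under 0.05, 8 of the 10 were lower and none higher, where 5161 of the 13575 tested genes passed in either direction. Since the choice of the genes used this contrast, nothing is read from these counts. Of all calls, 67.8% were higher with TPM as deposited, 50.2% under median-of-ratios scaling and 43.9% under quantile normalization. In 7 genes every KO library lay below every WT library (the same 6 and Shmt1), a pattern shared by 19.5% of tested genes. Fewer expressing cells and less RNA per cell cannot be told apart in such bulk libraries.

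**Figure D1:**
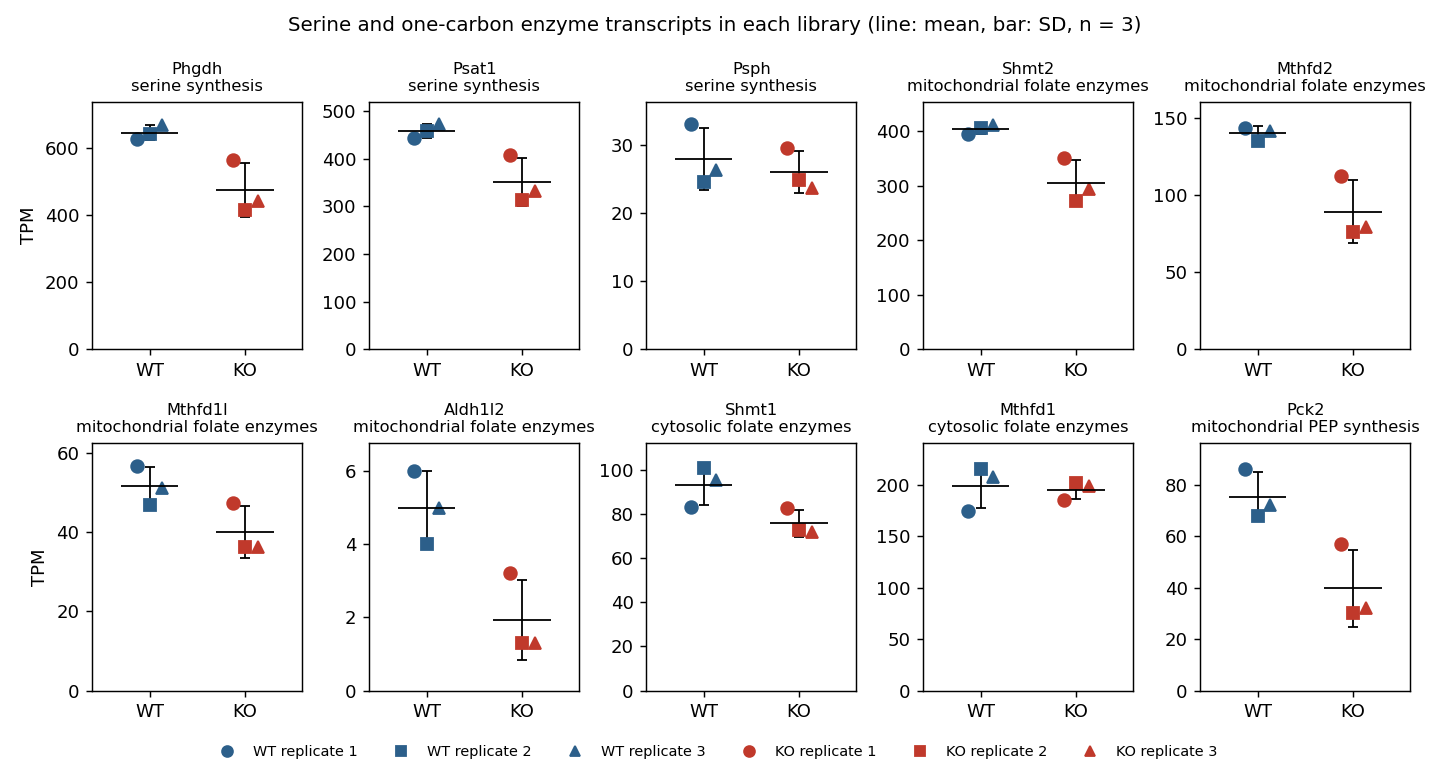
TPM of the 10 genes in each library (vertical axes start at 0; marker shape gives the replicate, line and bar the mean and SD of 3 libraries). KO replicate 1 lies above KO replicates 2 and 3 in every panel except Mthfd1, and KO and WT points overlap in Psph, Mthfd1l and Mthfd1.

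Serine synthesis begins with Phgdh, the dehydrogenase that commits 3-phosphoglycerate to serine (mm10 chromosome 3, 98313171 to 98339969, minus strand). It was the most abundant of the 10, at 624.1, 638.8 and 667.6 TPM in WT replicates 1, 2 and 3 and at 564.1, 413.5 and 442.3 TPM in KO replicates 1, 2 and 3. All 3 KO values were below the lowest WT value, with KO replicate 1 close to it. Mean levels were 644 ± 22.1 TPM in WT and 473 ± 79.9 TPM in KO (SD, n = 3). KO thus stood at 73.6% of WT, a log2 fold change of -0.45 (SE 0.12).

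Psat1, the aminotransferase of the next step (chromosome 19, 15905123 to 15925059, minus strand), had WT values of 443.1, 457.8 and 472.1 TPM and KO values of 408.7, 312.5 and 332.1 TPM. The order of the libraries was that of Phgdh in both groups. Means of 458 ± 14.5 TPM in WT and 351 ± 50.8 TPM in KO (SD, n = 3) put KO at 76.7% of WT, with a log2 fold change of -0.39 (SE 0.10).

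Psph, the phosphatase that releases free serine (chromosome 5, 129765558 to 129787443, minus strand), did not follow them. It was at 33.1, 24.5 and 26.3 TPM in WT and 29.5, 24.8 and 23.7 TPM in KO, so the groups overlapped and replicate 1 was the highest library in each. The KO mean was 93.0% of WT, and the log2 fold change of -0.10 (SE 0.13) was smaller than its error. Without WT replicate 1 it was 0.03. In GENCODE, 10.4% of Psph exon bases lie opposite exons of Cct6a, a chaperonin subunit gene listed at 450.3 to 644.9 TPM. The sources used here do not say whether counting used the strand, so the Psph value is uncertain.

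The mitochondrial folate track starts with Shmt2, which splits serine into glycine and a folate-bound carbon (chromosome 10, 127517123 to 127522444, minus strand). WT libraries held 394.6, 405.3 and 412.0 TPM and KO libraries 351.2, 272.0 and 294.4 TPM. The WT values were tightly grouped and every KO value was lower. Shmt2 averaged 404 ± 8.78 TPM in WT and 306 ± 40.8 TPM in KO (SD, n = 3), or 75.7% of WT, and its log2 fold change was -0.41 (SE 0.09).

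Mthfd2, the dehydrogenase and cyclohydrolase that oxidises the carbon (chromosome 6, 83305704 to 83326011, minus strand), was at 143.9, 135.0 and 141.9 TPM in WT and 112.8, 76.1 and 79.5 TPM in KO. KO replicates 2 and 3 were at 56.2% of the mean of WT replicates 2 and 3. The KO mean over 3 libraries was 63.8% of WT (89.5 ± 20.3 against 140.3 ± 4.67 TPM, SD, n = 3), and the log2 fold change was -0.67 (SE 0.15).

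Mthfd1l, the synthetase that frees the carbon as formate (chromosome 10, 3972892 to 4167081, plus strand), had WT values of 56.6, 46.8 and 51.1 TPM and KO values of 47.4, 36.3 and 36.2 TPM. KO replicate 1 was slightly above WT replicate 2, so the groups overlapped by that library. The KO mean was 77.6% of WT and the log2 fold change -0.36 (SE 0.13). Without KO replicate 1 the log2 fold change was -0.49, and without both replicates 1 it was -0.42.

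Aldh1l2, the formyl-folate dehydrogenase that burns the carbon to CO2 and yields NADPH (chromosome 10, 83487447 to 83534146, minus strand), was the least abundant of the 10. WT libraries were at 6.0, 4.0 and 5.0 TPM and KO libraries at 3.2, 1.3 and 1.3 TPM. The KO mean was 38.7% of WT. The log2 fold change of -1.08 (SE 0.26) on the log2(TPM + 1) scale became -1.43 with a pseudocount of 0.1 and -0.53 with 5. It was the furthest from 0 among the 10, except with a pseudocount of 5, where Pck2 was at -0.89. A filter at a mean of at least 5 TPM left Aldh1l2 out. In GENCODE, 14.1% of Aldh1l2 exon bases lie opposite exons of D10Wsu102e, listed at 63.4 to 68.6 TPM in KO and 78.8 to 79.8 TPM in WT, and whether this opposite gene adds reads to Aldh1l2 was not tested.

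Pck2 (chromosome 14, 55540263 to 55550020, plus strand) was at 85.9, 67.7 and 72.2 TPM in WT and 56.9, 30.0 and 32.2 TPM in KO. KO replicates 2 and 3 lay well under the WT range and KO replicate 1 between. Pck2 averaged 75.3 ± 9.48 TPM in WT and 39.7 ± 14.9 TPM in KO (SD, n = 3), or 52.7% of WT, a log2 fold change of -0.96 (SE 0.24). Pck1, its cytosolic counterpart, was listed at 0 in all 6 libraries.

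Of the cytosolic enzymes, Shmt1 runs the Shmt2 reaction outside the mitochondrion (chromosome 11, 60788897 to 60811265, minus strand). It was at 83.1, 100.7 and 95.6 TPM in WT and 82.6, 72.9 and 71.7 TPM in KO. The groups did not overlap, but WT replicate 1 and KO replicate 1 were nearly equal. The KO mean was 81.3% of WT and the log2 fold change -0.29 (SE 0.09). Its log2 fold change was -0.37 when WT replicate 1 was left out, -0.36 when KO replicate 1 was and -0.44 when both were. In GENCODE, 4.74% of its exon bases lie opposite exons of Smcr8, listed at 50.7 to 71.2 TPM.

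Mthfd1, the cytosolic enzyme that joins the dehydrogenase, cyclohydrolase and synthetase activities in 1 protein (chromosome 12, 76254406 to 76319820, plus strand), had overlapping groups. It was at 174.7, 215.2 and 207.7 TPM in WT and 185.2, 202.4 and 199.1 TPM in KO. Its log2 fold change was -0.02 (SE 0.09), a KO mean of 98.2% of WT, and it turned to 0.03 under quantile normalization. Leaving out KO replicate 1 gave 0.02, WT replicate 2 gave 0.04 and WT replicate 3 gave 0.01. Leaving out WT replicate 1 gave -0.11, KO replicate 2 gave -0.05 and KO replicate 3 gave -0.04.

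**Figure D2:**
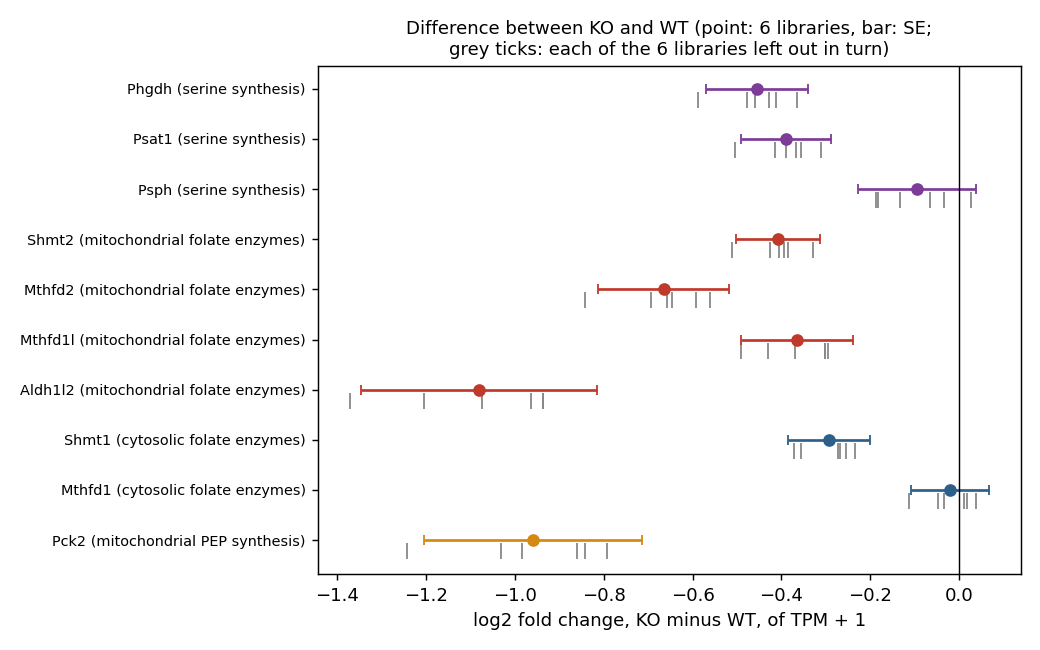
Log2 fold change of TPM + 1, KO minus WT, for each gene (point: all 6 libraries, bar: SE, grey ticks: each library left out in turn, colours: the 4 functional groups). Aldh1l2 at -1.08 and Pck2 at -0.96 lie furthest from 0, and the ticks of Psph and Mthfd1 fall on both sides of 0.

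Set side by side, the median log2 fold change was -0.54 for the 4 mitochondrial folate genes and -0.16 for the 2 cytosolic ones. The difference was -0.38. The cytosolic median lies midway between Shmt1 at -0.29 and Mthfd1 at -0.02. Shmt1 was near Mthfd1l at -0.36 and Shmt2 at -0.41. TPM is per length, so levels may also be summed. The mitochondrial genes summed to 601.1, 591.1 and 610.0 TPM in WT replicates 1, 2 and 3 and to 514.6, 385.7 and 411.4 TPM in KO replicates 1, 2 and 3. Every KO sum was below every WT sum. The cytosolic genes summed to 257.8, 315.9 and 303.3 TPM in WT and 267.8, 275.3 and 270.8 TPM in KO. Here WT replicate 1 was the lowest of all 6 libraries, and the groups overlapped. The mitochondrial share of the folate enzyme TPM was 70.0%, 65.2% and 66.8% in WT and 65.8%, 58.4% and 60.3% in KO. The share overlapped between groups through KO replicate 1 and WT replicate 2. Its mean was 61.5% ± 3.85 in KO and 67.3% ± 2.45 in WT (SD, n = 3), a difference of -5.84 percentage points (KO minus WT).

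The size of that difference depended on Mthfd1. With Mthfd1 left out, the share differed by -1.44 percentage points. Within the pair that runs the same reaction, Shmt2 to Shmt1 was 4.75, 4.02 and 4.31 in WT and 4.25, 3.73 and 4.11 in KO, so the ratios overlapped. Mthfd1l to Mthfd1 was 0.324, 0.217 and 0.246 in WT and 0.256, 0.179 and 0.182 in KO, an overlap through KO replicate 1. Mthfd2 to Mthfd1 was 0.824, 0.627 and 0.683 in WT and 0.609, 0.376 and 0.399 in KO. These last ratios did not overlap, but KO replicate 1 was close to WT replicate 2. Of the paralogues outside the 10, Mthfd2l, a second mitochondrial dehydrogenase, was at 1.1 to 1.2 TPM in every library. Aldh1l1, the cytosolic counterpart of Aldh1l2 (chromosome 6, 90550768 to 90599171), was at 0.2, 0.1 and 0.2 TPM in WT and 0.7, 1.8 and 1.7 TPM in KO. It missed the filter on low values and was not tested with it. Without that filter limma called it higher (log2 fold change 1.01, adjusted p = 0.040), as it did 2730 of 22884 genes.

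**Figure D3:**
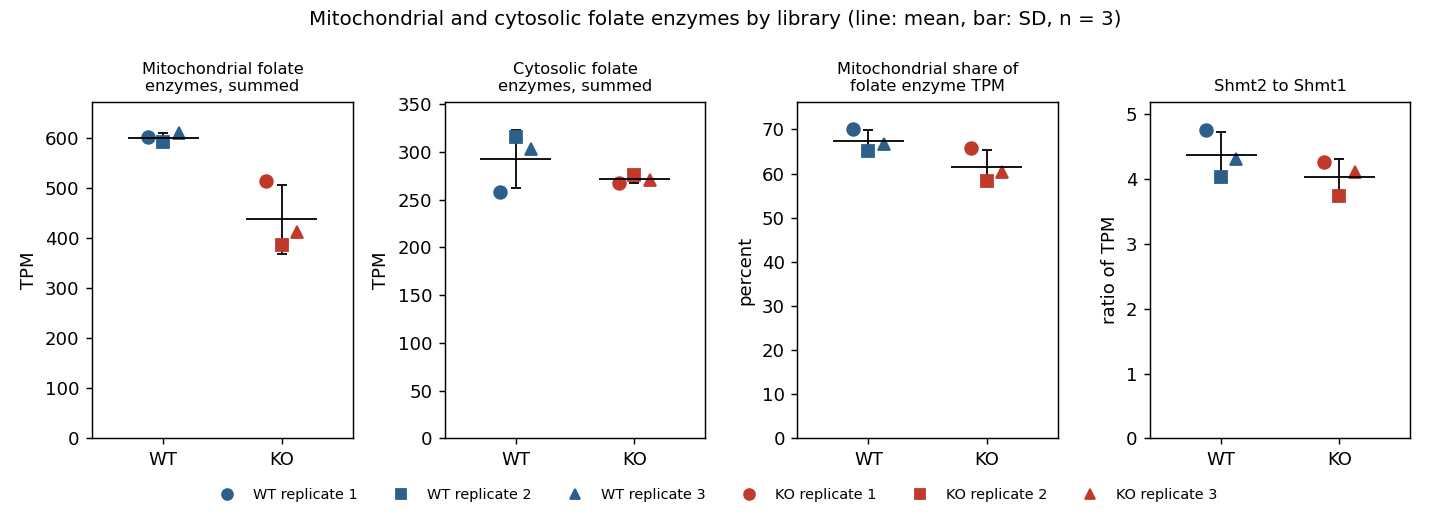
Summed TPM of the mitochondrial (Shmt2, Mthfd2, Mthfd1l, Aldh1l2) and cytosolic (Shmt1, Mthfd1) folate enzymes, the mitochondrial share in percent, and the ratio of Shmt2 to Shmt1, by library (axes start at 0; line and bar: mean and SD of 3 libraries). The mitochondrial sums separate the groups, at 385.7 to 514.6 TPM in KO and 591.1 to 610.0 TPM in WT, while the other 3 quantities overlap.

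By level, the order in WT was Phgdh, Psat1, Shmt2, Mthfd1, Mthfd2, Shmt1, Pck2, Mthfd1l, Psph and Aldh1l2, and only Shmt1 and Pck2 were neighbours whose WT ranges overlapped. In KO the same order held except that Mthfd1l and Pck2 changed places, and the ranges of Psat1 and Shmt2, of Mthfd2 and Shmt1, and of Mthfd1l and Pck2 overlapped. Phgdh, Psat1 and Shmt2 were among the most abundant transcripts of the cells, above 98.2%, 97.1% and 96.6% of tested genes in WT, whereas Aldh1l2 was above 27.5%.

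KO replicate 1 was the highest KO library in 9 of the 10 genes. With the WT mean set at 0 and the mean of KO replicates 2 and 3 at 100%, KO replicate 1 lay at 36.8% for Phgdh, 36.2% for Psat1, 43.7% for Shmt2, 44.0% for Mthfd2, 26.9% for Mthfd1l, 48.6% for Aldh1l2, 41.6% for Pck2 and 50.6% for Shmt1. For Chaf1b, the deleted gene, it was 90.3%. Over all 830 genes called lower, the median was 58.6% (quartiles 51.3% and 68.2%), so KO replicate 1 lay in between there too. The values listed for the enzymes were all under that lower quartile, nearer to WT. The 830 genes were called with KO replicate 1 in the fit, and Mthfd1l and Shmt1 are not among them. Without KO replicate 1 and WT replicate 1 together, the log2 fold change was -0.61 for Phgdh, -0.53 for Psat1, -0.53 for Shmt2, -0.82 for Mthfd2, -1.25 for Aldh1l2, -1.14 for Pck2, -0.06 for Psph and -0.07 for Mthfd1. Each of these but that of Psph was further from 0 than on the full set. WT replicate 1 went both ways: it was the highest WT library for Psph, Mthfd2, Mthfd1l, Aldh1l2 and Pck2 and the lowest for Phgdh, Psat1, Shmt2, Shmt1 and Mthfd1. It was 1.33 times the mean of WT replicates 2 and 3 for Aldh1l2, 1.30 times for Psph and 1.23 times for Pck2, and 0.826 times for Mthfd1.

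The number of the 10 genes called lower by limma rested on the libraries used. Leaving out KO replicate 1 gave 8, leaving out WT replicate 1 gave 5 (Aldh1l2 and Pck2 lost, Shmt1 gained) and leaving out both gave 8. Lower calls over all 13575 tested genes moved as well, from 830 on the full set to 1619, 1923 and 3710 in that order. None of the 10 was called without KO replicate 2, KO replicate 3, WT replicate 2 or WT replicate 3, each in turn. At an unadjusted limma p under 0.05, 6 to 7 of the 10 were then lower, where 3220 to 3886 of all tested genes passed in either direction. Over all genes, limma then called 3, 0, 2 and 1 genes lower, where the full set gave 830.

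Across the 6 libraries the genes also followed each other. Pearson's r of a gene's log2(TPM + 1) with the mean centred profile of the other 9 was 0.999 for Mthfd2, 0.991 for Pck2, 0.984 for Aldh1l2, 0.983 for Phgdh, 0.979 for Psat1, 0.979 for Shmt2 and 0.959 for Mthfd1l. It was 0.817 for Shmt1, 0.545 for Psph and -0.207 for Mthfd1. These r values describe 6 points that fall in 2 groups, so the difference between KO and WT is part of them, and the cells of a library are shared by all genes. From 8859 other genes averaging 5 TPM or more, those most like the mean profile of the 10 were Fbxw8 (r = 0.999), Nars (0.998), Yars (0.998), Hax1 (0.998) and Eci2 (0.998). Nars and Yars encode the asparaginyl- and tyrosyl-tRNA synthetases. Nars was at 318.3, 309.3 and 322.4 TPM in WT and 284.0, 231.6 and 235.9 TPM in KO, with KO replicate 1 again the highest of its group.

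The stretches before the transcription starts of 4 genes are shown because they set the mitochondrial and cytosolic Shmt genes beside each other and hold the motif matches described next. RefSeq promoter windows on GRCm38.p6, the assembly that mm10 names, were found for 9 of the 10 genes, not for Aldh1l2. Each is printed 5′ to 3′ on the gene's own strand. Capitals mark CCAAT or its reverse complement ATTGG in Psat1 and Shmt1, and the match to TGATGNAA in Pck2. The Shmt2 stretch holds neither and has no capitals.
Psat1, chr19:15925060-15925209, minus strand: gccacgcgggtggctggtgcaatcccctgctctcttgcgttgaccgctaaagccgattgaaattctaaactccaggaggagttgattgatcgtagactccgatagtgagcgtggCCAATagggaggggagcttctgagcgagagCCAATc
Pck2, chr14:55540116-55540262, plus strand: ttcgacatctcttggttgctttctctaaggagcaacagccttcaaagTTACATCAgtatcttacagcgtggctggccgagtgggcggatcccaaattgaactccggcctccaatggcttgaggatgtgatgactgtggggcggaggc
Shmt1, chr11:60811266-60811415, minus strand: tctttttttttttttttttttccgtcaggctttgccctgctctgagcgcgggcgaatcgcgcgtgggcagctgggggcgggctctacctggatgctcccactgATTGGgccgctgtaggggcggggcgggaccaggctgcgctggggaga
Shmt2, chr10:127522445-127522594, minus strand: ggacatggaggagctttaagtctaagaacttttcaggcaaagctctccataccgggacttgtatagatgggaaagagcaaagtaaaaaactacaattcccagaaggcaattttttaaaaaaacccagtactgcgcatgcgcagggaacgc

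In whole windows of 250 bases before to 50 after the start, read on both strands and counted motif by motif even where matches overlap, CCAAT, the box bound by NF-Y, was found in 7 of the 9 genes (Phgdh, Psat1, Psph, Mthfd2, Shmt1, Mthfd1 and Pck2) and in 37.4% of all 32851 windows. These 7 include Psph and Mthfd1, whose levels overlapped between KO and WT. Shmt2 and Mthfd1l had no match. GGGCGG, a core of Sp1 sites, was in 6 of the 9 genes (Psat1, through its second listed start, Psph, Mthfd1l, Shmt1, Mthfd1 and Pck2) and in 35.7% of windows. TGATGNAA, the core of the composite element that ATF4 and C/EBP proteins bind, was found only in Pck2 among the 9, at position -103, and in 3.97% of windows. CACGTG, the E-box of MYC and its relatives, was in none of the 9 and in 7.15% of windows. A match is a run of letters in this window and not a measured binding site.

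Around the 10 genes, 78 further genes of folate, glycine, serine and methionine metabolism and of the ATF4 response were compared, of which 60 passed the filter of at least 1 TPM in at least 3 libraries. Limma called 10 of the 60 lower (beside 6.11% of all tested genes) and 3 higher (beside 12.9%), and their median log2 fold change was -0.16. These lists too were chosen with earlier results of these data known. Their counts, and the p-values of their genes below, are thus a description. In 25 every KO library lay below every WT library and in 6 above, beside 19.5% and 23.4% of all tested genes. Lower calls numbered 21 when KO replicate 1 was left out, 19 when WT replicate 1 was and 35 when both were, where 1619, 1923 and 3710 of all 13575 tested genes were called lower. The count was 0 without KO replicate 2, KO replicate 3, WT replicate 2 or WT replicate 3, with 14 to 21 lower and 3 to 4 higher at an unadjusted limma p under 0.05, a threshold that 3220 to 3886 of all tested genes passed in either direction.

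Of 15 tested folate enzymes and carriers outside the 10, limma called 3 lower and 1 higher. The log2 fold change was negative in 13 of the 15. Slc19a1, the reduced folate carrier of the cell surface, was at 18.3 ± 1.15 TPM in WT and 12.5 ± 2.19 TPM in KO (SD, n = 3), with a log2 fold change of -0.52 (limma, SE 0.12, adjusted p = 0.035). Fpgs, which adds the glutamate tail that keeps folate inside cells, fell, from 15.7, 18.4 and 16.8 TPM in WT to 13.2, 11.1 and 11.7 TPM in KO (limma adjusted p = 0.023). Mtrr, which reactivates methionine synthase, fell from 7.73 TPM (SD 0.32) to 5.23 TPM (SD 0.84, n = 3 each, limma adjusted p = 0.029). Folr1, a folate receptor, was nearly silent in WT at 0.9, 0.6 and 0.6 TPM and reached 2.8, 6.8 and 6.1 TPM in KO (log2 fold change 1.81, SE 0.28, limma adjusted p = 0.015). Tyms, the thymidylate synthase, was not called, with a log2 fold change of 0.10.

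Glycine, the second product of the Shmt reaction, is broken down by the glycine cleavage system. Of 4 tested genes of glycine breakdown, limma called 2 lower and 1 higher. Gcsh, its lipoyl carrier protein, was at 144.7, 163.6 and 159.1 TPM in WT and 122.7, 107.8 and 108.8 TPM in KO (log2 fold change -0.46, SE 0.07, limma adjusted p = 0.016). Gcat, which makes glycine from a threonine breakdown product, fell from 74.0 TPM (SD 6.03) to 55.1 TPM (SD 3.68, n = 3 each, limma adjusted p = 0.023). Amt, the aminomethyltransferase, rose, from 1.2, 1.5 and 1.8 TPM in WT to 2.6, 2.9 and 2.6 TPM in KO (limma adjusted p = 0.024). Gldc, the decarboxylase without which the system does not run, was at 0.1 TPM or less in every library.

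Of 10 tested carriers of serine and glycine, 1 was called lower by limma and none higher. It was Slc1a5, a carrier of neutral amino acids, at 162 TPM (SD 4.93) in WT and 139 TPM (SD 6.95) in KO (n = 3 each, limma adjusted p = 0.038). Sfxn1, the mitochondrial serine carrier, was at 82.8, 88.3 and 87.5 TPM in WT and 83.1, 76.8 and 76.6 TPM in KO and was not called. Of 6 tested users of serine, Sptlc2, a subunit of the enzyme that starts sphingolipid synthesis, rose from 56.3 TPM (SD 3.16) to 68.8 TPM (SD 5.57, n = 3 each, limma adjusted p = 0.049), the 1 call of that list. Cth, the last enzyme of cysteine synthesis from serine, was chosen after its values were seen because a single library stood out. It was at 27.4, 25.6 and 32.4 TPM in WT, at 7.8 and 8.6 TPM in KO replicates 2 and 3, and at 28.0 TPM in KO replicate 1. Limma did not call it on the full set (log2 fold change -1.12, SE 0.45, adjusted p = 0.123).

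In the methionine cycle and the salvage of its sulphur, limma called 2 of 8 tested genes lower and none higher. Mtap, which opens methionine salvage, was at 95.2, 114.2 and 107.3 TPM in WT and 80.0, 63.4 and 66.3 TPM in KO (log2 fold change -0.59, SE 0.11, limma adjusted p = 0.022). Adi1, a dioxygenase later in the same salvage route, fell, from 160.6, 146.6 and 154.0 TPM in WT to 121.9, 87.3 and 87.2 TPM in KO (limma adjusted p = 0.028). Of 16 tested genes of the ATF4 and amino acid response, limma called Atf4 itself and Slc7a5, a leucine carrier, lower and none higher. The log2 fold change was negative in 12 of the 16. In 7 every KO library lay below every WT library, beside 19.5% of all tested genes, and the rest overlapped. These 7 were Atf4, Slc7a5, Chac1, Asns, Sesn2, Slc3a2 and Eif4ebp1. Asns had a log2 fold change of -0.47 (limma adjusted p = 0.052). Atf4 was at 602.1, 555.7 and 585.4 TPM in WT and 529.0, 431.7 and 449.3 TPM in KO (log2 fold change -0.31, SE 0.08, limma adjusted p = 0.048), and it was called under 9 of 17 settings. Slc7a5 was at 449 TPM (SD 47.5) in WT and 352 TPM (SD 29.8) in KO (n = 3 each, limma adjusted p = 0.049).

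**Figure D4:**
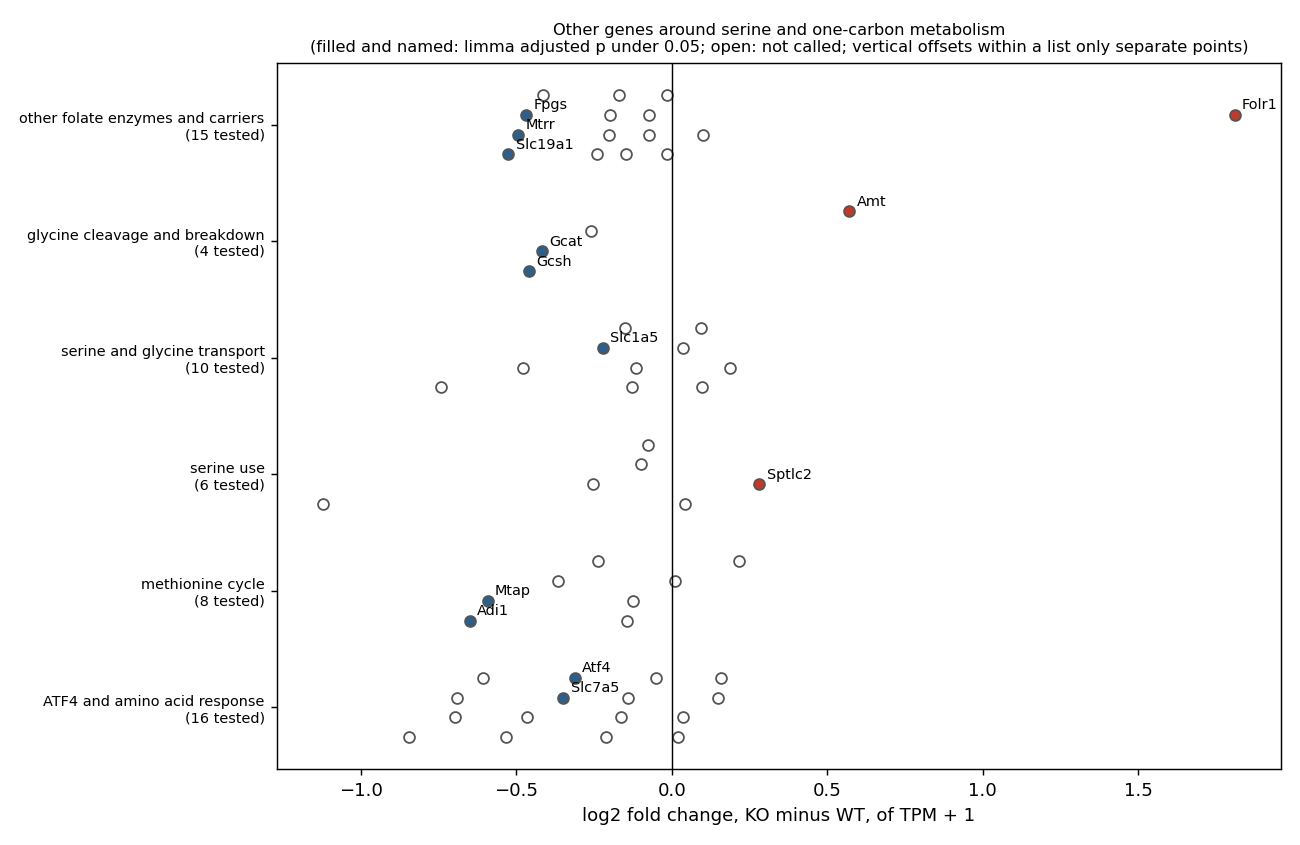
Log2 fold change of TPM + 1, KO minus WT, of the tested genes of 6 lists around the 10 enzymes (filled and named: limma adjusted p under 0.05, blue lower and red higher; open: not called; offsets within a list only separate points). Filled points lie left of 0 except Folr1, Amt and Sptlc2.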

How the data were processed

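RNA from 6 libraries (3 KO, 3 WT, grouped by sample title) was analysed. The submitters' processing notes name mm10, featureCounts 1.6.2, STAR 2.6.1e, Trim Galore 0.4.2 and cutadapt 1.9.1. Annotation, strand setting and the step to TPM: not given in the sources used here. Each library's file, as deposited by the authors, lists TPM by gene symbol to 1 decimal, with library sums of 999924 to 999935. TPM keeps no depth and is a share, so each gene's value moves with the others. The header of WT replicate 1 notes a replacement, which the others lack.

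A gene was tested if 3 or more libraries had 1 TPM or more (13575 genes; 22294 left out). R 4.3.3 and limma 3.58.1 were used, with genotype as the only term on log2(TPM + 1), a trended prior variance and two-sided p-values, adjusted by Benjamini-Hochberg across the 13575 genes. The fit was tested on data simulated with independent noise for each gene and library. No library stood apart in them, so that test does not cover the moves seen when libraries were left out. Named were the 10 members, their paralogues, up to 4 called genes per list in the majority direction and 2 in the other, Atf4, and the 5 genes most like the members' profile; Tyms, Gldc, Sfxn1 and Cth were added after their values were seen. The members and lists were chosen with earlier results of these data known. Positions come from RefSeq (GRCm38.p6), exon overlaps from GENCODE M21. Alternatives were other pseudocounts (0.1, 0.5, 5), filters, scalings, array weights, a replicate block and left-out libraries; leaving out both replicates 1 was added after seeing the data.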

Additional observations from a re-analysis of the deposited data

How the results depend on the processing

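The median log2 fold change of the 10 genes was negative under all 16 alternatives, between -0.53 and -0.32. So was the difference between mitochondrial and cytosolic medians, between -0.51 and -0.25. Every alternative kept both cytosolic genes, so that difference without Mthfd1 was not tested. The filter at a mean of at least 5 TPM, which gave the -0.25, left out Aldh1l2, so both medians there lack it. Counts of calls moved. Without the filter on low values limma called 0 of the 10 lower (8 at an unadjusted p under 0.05), beside 667 of all 22884 genes (7674 at an unadjusted p, in either direction). Under the replicate block, which by its balance leaves every fold change as it was, it called 0 (7 at an unadjusted p under 0.05), beside 33 of 13575 (4223). Of the 60 other genes it called 17 lower under median-of-ratios scaling (1602 of all genes). With array weights it called 40 lower and 7 higher (4841 and 4588 of all genes), but the weights' estimation stopped before its tolerance was reached. With a mean of at least 5 TPM it called 0 higher, beside 883 of all 10041 genes. That filter left out Folr1 and Amt, while Sptlc2 stayed in and was not called. Under the replicate block it called 5 lower and 0 higher (33 and 300 of all genes). Leaving out 1 library at a time gave 0 to 8 of the 10 lower, and 0 to 21 lower and 0 to 4 higher of the other genes. Over all 13575 genes this gave 0 to 1923 lower and 0 to 2927 higher. Leaving out both replicates 1 gave 35 lower and 6 higher of the other genes, beside 3710 and 3859 of all genes. The cause of the other moves was not tested. The mitochondrial share differed by -1.44 percentage points without Mthfd1 and by -7.99 without KO replicate 1. Deviations of same-numbered libraries from their group means correlated at -0.20, -0.15 and -0.16 across genes, and those of differently numbered ones at -0.21 to 0.23. Deviations within a group are tied to each other, so these values cannot show whether replicate numbers pair the libraries. Depth is unknown, so counting error could not be set beside these differences.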
